A study of Mus musculus with 11 samples.

Results

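The 6 microRNAs (miRNAs) followed here are known chiefly from fibroblasts and smooth muscle cells: mmu-miR-199a-3p, mmu-miR-199a-5p, mmu-miR-214-3p, mmu-miR-143-3p, mmu-miR-145a-5p and mmu-miR-152-3p (below without the species prefix). They were read in macrophages sorted from the mouse heart, where a scar forms after injury. They were chosen by name, with earlier results of these data known, and all 6 were among the 1247 mouse miRNAs on the array. MiRNAs were measured on 11 Agilent arrays hybridised with Cy3-labelled RNA. All cells were GFP+ cardiac macrophages of Cx3cr1GFP/+ mice aged 2 to 3 months, a line in which GFP replaces 1 allele of the fractalkine receptor gene, so that every group carries that allele. The injury was a cryoinjury, in which a cold probe kills part of the heart wall, used as a model of myocardial infarction. Day 0 was Ly6Clow/CX3CR1high macrophages of uninfarcted hearts without surgery (2 arrays). Day 3 was Ly6Chigh/CX3CR1low macrophages (3 arrays), and day 7 and day 30 were again Ly6Clow/CX3CR1high macrophages (3 arrays each). The Ly6Chigh population was measured at day 3 only, so in comparisons with day 3 the stage and the sorted population cannot be told apart. The day 0 hearts had no sham operation.

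A miRNA guides the silencing complex to messenger RNAs mainly through its seed, bases 2 to 8. The hairpin of miR-199a-3p and miR-199a-5p and the hairpin of miR-214-3p lie on a transcript, Dnm3os, that runs antisense to the dynamin 3 gene and is expressed in mesenchymal cells. miR-143-3p and miR-145a-5p are neighbours on another transcript, which smooth muscle cells express strongly and which favours their contractile state. miR-152-3p lies in the gene of the coatomer subunit Copz2 and belongs to the family of miR-148 and miR-152, which represses the DNA methyltransferase Dnmt1. In the healing heart these miRNAs are mostly discussed as products of fibroblasts and vessel walls that build and supply the scar, and macrophages are not their usual source.

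Mature sequences were at hand for 4 of the 6 members (RefSeq, build GRCm38.p6), and they are shown with the seed in capitals because seeds decide which measured miRNAs are close relatives of the members.
miR-199a-3p: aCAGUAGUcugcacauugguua
miR-199a-5p: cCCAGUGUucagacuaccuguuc
miR-214-3p: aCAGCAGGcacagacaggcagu
miR-152-3p: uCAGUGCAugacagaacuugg
miR-148a-3p: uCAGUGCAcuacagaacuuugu
miR-148b-3p: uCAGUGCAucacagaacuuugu
miR-152-3p shared the seed CAGUGCA with miR-148a-3p and miR-148b-3p, both of which were on the array. miR-199a-3p is encoded in Mir199a-2 (chr1:162217883-162217904, plus strand, within Dnm3 and Dnm3os) and again in Mir199a-1 (chr9:21496498-21496519, minus strand, within Dnm2). Its 22 bases are also those of miR-199b-3p from Mir199b (chr2:32318524-32318545, plus strand, within Dnm1), which has no entry of its own on the array, so the miR-199a-3p signal cannot be assigned to 1 of the 3 hairpins. miR-199a-5p comes from the same 2 hairpins as miR-199a-3p (chr1:162217844-162217866 and chr9:21496537-21496559). miR-214-3p (chr1:162223438-162223459, plus strand) starts 5555 bases downstream of the miR-199a-3p start on chromosome 1. It shares its seed CAGCAGG with miR-761, which was detected on no array. miR-152-3p lies at chr11:96850439-96850459 on the plus strand, within Copz2.

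The arrays differed in brightness by up to 41.4-fold, measured as the 75th percentile of total gene signal over the 126 miRNAs detected on all 11 arrays. In scanner units it spanned 55.7 to 163 (day 0), 805 to 1607 (day 3), 114 to 323 (day 7) and 1453 to 2304 (day 30). Each array was divided by its percentile, so levels below are log2 values relative to it. The lowest scaled signal that an array still called detected was, in log2, between -6.63 and -5.12 at day 0, -9.54 and -8.53 at day 3, -7.89 and -6.35 at day 7, and -10.04 and -9.25 at day 30. An undetected miRNA therefore has a higher scaled background at day 0 and day 7 than at day 3 and day 30. Day 30 replicates 2 and 3 lay closer together than scanner error alone would put them (a median absolute log2 difference of 0.06 over 290 miRNAs) and were counted as 1 sample. This left 10 samples, with 2 at day 0, 3 at day 3, 3 at day 7 and 2 at day 30. The labels speak of independent biological replicates, and how precise a value is depends on these few arrays. The haematopoietic miR-142a-3p and miR-223-3p, which macrophages express, were detected on all 11 arrays.

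The stromal miRNAs were scarcely measurable in macrophages of uninjured hearts and were measured after injury. Per array, 0 or 1 of the 6 members were detected at day 0, 4 or 5 at day 3, 3 or 4 at day 7, and 5 on each day 30 array. Of all 1247 miRNAs, 151 to 173 were detected per array at day 0 and 301 to 338 at day 3. At day 7 these were 208 to 270 and at day 30 290 to 340, so detection over all miRNAs was also lowest at day 0. miR-199a-3p was detected on 10 of 11 arrays, miR-199a-5p and miR-214-3p on all 9 arrays after injury, miR-152-3p on 7 and miR-143-3p on 5, and miR-145a-5p was never detected. Brightness moved with these counts in part. The dimmest array was day 0 replicate 2 (75th percentile 55.7). Day 7 replicate 2 (114) was dimmer than day 0 replicate 1 (163), yet it detected 208 miRNAs and 3 members, against 173 and 1. The part of brightness in the detection was not tested. In bulk RNA of this kind, fewer cells of a type and less RNA per cell cannot be told apart.

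**Figure D1:**
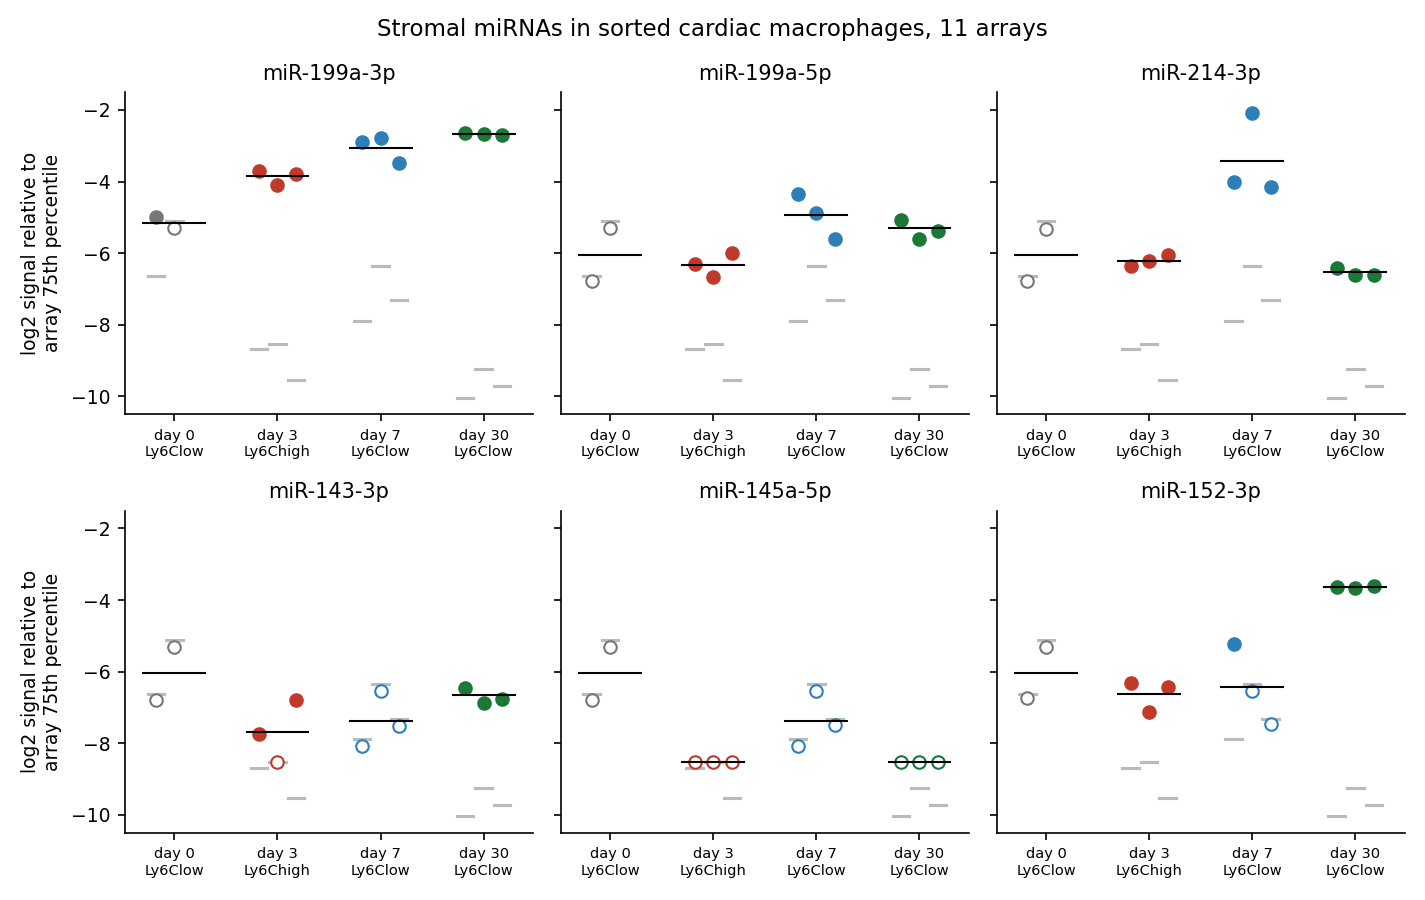
Level of each of the 6 stromal miRNAs on the 11 arrays (vertical axis, log2 of total gene signal relative to the array's 75th percentile; horizontal axis, day after injury and sorted population). Filled points were detected, open points were not, grey ticks mark each array's lowest detected level and black lines the mean over samples; miR-199a-3p is lowest at day 0, miR-214-3p stands highest at day 7, miR-152-3p at day 30, and miR-145a-5p has open points only.

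mmu-miR-199a-3p, known in rodents for promoting the proliferation of cardiomyocytes, had its lowest level at day 0 and its highest at day 30. Its log2 level was -5.00 and -5.29 at day 0, -3.69, -4.08 and -3.79 at day 3, -2.90, -2.79 and -3.50 at day 7, and -2.65, -2.68 and -2.70 at day 30. The 4 groups did not overlap, and the lower day 0 array was not called detected. Group means were -5.15 ± 0.20 (SD, n = 2), -3.86 ± 0.20 (n = 3), -3.06 ± 0.38 (n = 3) and -2.67 ± 0.03 (n = 2) in order of day. Against day 0, miR-199a-3p rose by 2.47 ± 0.45 (log2 ± SE, 5.55-fold, adjusted p = 0.00168) at day 30. It rose by 2.09 ± 0.41 (4.24-fold, adjusted p = 0.0227) at day 7.
At day 3 it rose by 1.29 ± 0.41 (2.45-fold, adjusted p = 0.0192), a change whose sign turned (-0.88, adjusted p = 0.189) when arrays were scaled to miR-142a-3p and miR-223-3p. Day 30 against day 3 was also called, at 1.18 ± 0.41 (2.27-fold, adjusted p = 0.0459). The neighbours day 30 and day 7 (0.39, adjusted p = 0.448) and day 7 and day 3 (0.79, adjusted p = 0.0915) were not separated by the test. These comparisons share groups and are not independent of each other. The call at day 30 against day 0 held with each of the 10 samples left out in turn (largest adjusted p = 0.0251). It was lost with scaling to miR-142a-3p and miR-223-3p (0.50, adjusted p = 0.473) and with brightness as a covariate (2.38, adjusted p = 0.204). The call at day 7 was lost with scaling to miR-142a-3p and miR-223-3p, with only the groups compared and with array quality weights (adjusted p = 0.198, 0.279 and 0.233). It was also lost without day 3 replicate 2 or 3, day 7 replicate 3 or either day 30 sample (adjusted p = 0.0553 to 0.0706), and that at day 3 without the second day 0 sample or without replicate 1 or 3 of day 3 (0.0563 to 0.067). The call at day 30 against day 3 was lost without any of the day 3 or day 30 samples and without day 7 replicate 1 or 3 (0.0562 to 0.252), and with the replicate number as a block (0.0503). Over other settings, the call at day 30 against day 3 held in 12 of 16, with changes of 1.14 to 2.12. Scaling to the percentile over all miRNAs, scaling to miR-142a-3p and miR-223-3p and leaving out the detection filter also lost it. Within slide 1 the rise at day 30 against day 0 was 2.35, and within slide 2 it was 2.60.

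mmu-miR-199a-5p, the other arm of the same hairpins, which promotes fibroblast activation in human lung fibroblasts, gave fewer calls. It was undetected at day 0, where the 2 background values were -6.78 and -5.31. Its log2 level was -6.29, -6.68 and -6.01 at day 3, -4.35, -4.89 and -5.60 at day 7, and -5.07, -5.61 and -5.40 at day 30. All day 7 and day 30 arrays lay above all day 3 arrays, while day 7 and day 30 overlapped. Day 7 exceeded day 3 by 1.38 ± 0.48 (2.60-fold, adjusted p = 0.0375), but the difference was -0.96 without scaling and -0.43 with scaling to spiked control features. The difference was called in 9 of 16 other settings. It was also not called with the percentile over all miRNAs, quantile normalization, the highest floor, brightness as a covariate or the authors' table. It was still called without either day 0 sample or without day 7 replicate 3, and lost without any of the other 7 samples (adjusted p = 0.0584 to 0.125). No other comparison of this arm passed the test. Against the mean day 0 detection limit, the group mean was 1.5-fold higher at day 30 (adjusted p = 0.276) and 1.90-fold higher at day 7 (adjusted p = 0.156). Day 30 replicates 2 and 3 and day 7 replicate 3 lay below the limit of day 0 replicate 2 (-5.12). No smallest rise from day 0 can therefore be given.

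Of the products that share a hairpin or a hairpin family with the members, 7 were listed and 6 were on the array. The measured one was miR-199b-5p, detected on 10 arrays; miR-214-5p, miR-143-5p, miR-145a-3p, miR-152-5p and miR-145b were detected on none. miR-199b-5p comes from Mir199b, another hairpin that yields the miR-199a-3p sequence. Its total gene signal was 11.4 and 1.43 scanner units at day 0 (the second not detected), 17.5, 11.2 and 35.2 at day 3, 14.5, 4.13 and 5.60 at day 7, and 314, 211 and 258 at day 30. The day 30 signals exceed all others, on arrays that are also the brightest. After scaling, the means were -4.56 ± 1.02, -5.82 ± 0.33, -4.93 ± 0.54 and -2.82 ± 0.07 (log2, SD, n = 2, 3, 3 and 2) at days 0, 3, 7 and 30.
miR-199b-5p rose at day 30 against day 3 by 2.99 ± 0.51 (adjusted p = 0.00136), a call that held in 16 of 16 other settings and with every sample left out. It rose at day 30 against day 7 by 2.11 ± 0.51 (adjusted p = 0.00503), which became -0.24 with scaling to miR-142a-3p and miR-223-3p. At day 30 against day 0 the change was 1.74 ± 0.56 (adjusted p = 0.0191), with -0.24 under that same scaling and -0.15 with array brightness as a covariate, and it was lost without day 0 replicate 2 or either day 30 sample (0.0786 to 0.137). The ratio of miR-199b-5p to miR-199a-5p within an array was 0.51, 0.52 and 0.50 (log2) at day 3, -0.13, 0.11 and 0.07 at day 7, and 2.20, 2.83 and 2.63 at day 30. The 3 groups after injury did not overlap in this ratio, which was chosen after its values were seen and was not tested. At day 0 it was 2.94 and 0.03, with miR-199a-5p undetected on both arrays and miR-199b-5p undetected on the second. A high ratio can therefore not be called particular to day 30.

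**Figure D2:**
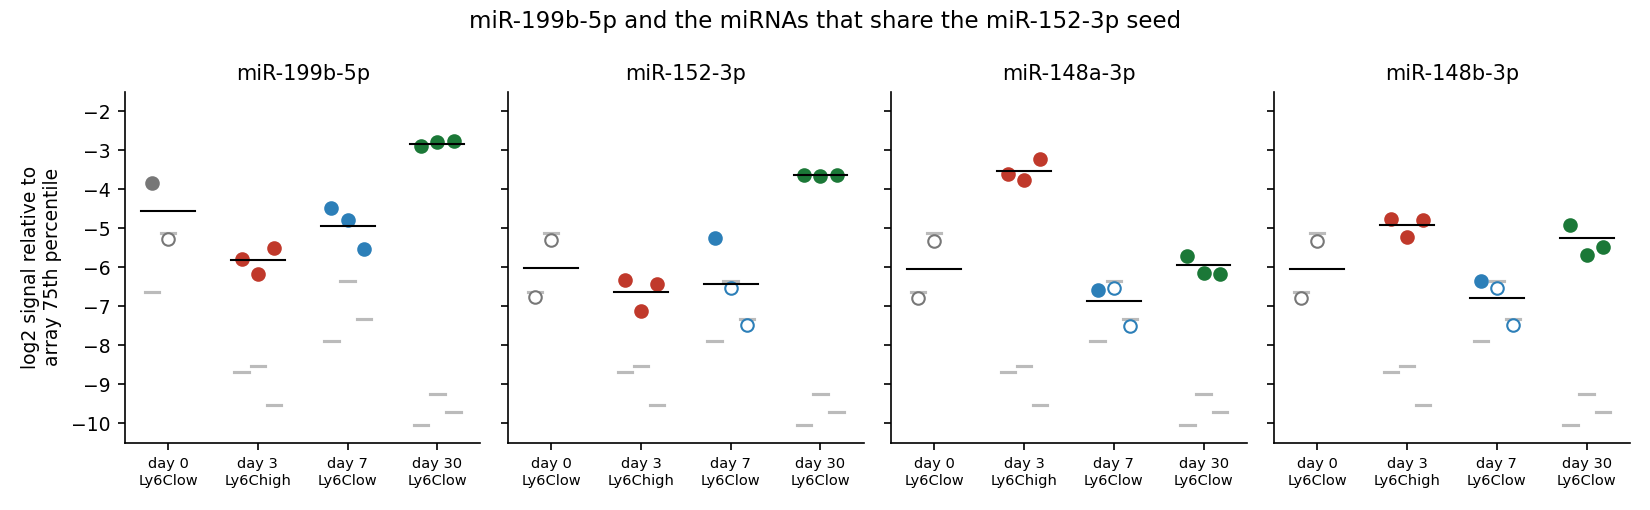
Level of miR-199b-5p and of the 3 miRNAs with the seed CAGUGCA on the 11 arrays (axes and symbols as for the members' plot: filled, detected; open, not detected; grey ticks, detection limit; black lines, mean over samples). miR-199b-5p and miR-152-3p are highest at day 30, whereas miR-148a-3p is highest at day 3.

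mmu-miR-214-3p, which in mice limits calcium overload of cardiomyocytes after ischaemia, followed another course from its neighbour miR-199a-3p and was high at day 7. It was undetected at day 0, with background values of -6.79 and -5.31. Its log2 level was -6.36, -6.23 and -6.04 at day 3, -4.01, -2.10 and -4.16 at day 7, and -6.41, -6.62 and -6.62 at day 30. The 3 day 7 arrays stood above all others, and day 7 replicate 2 stood well above the other 2 of its group. In scanner units, before any scaling, the signals were 20.0, 26.6 and 14.5 at day 7, against 11.7, 10.7 and 24.4 at day 3 and 27.2, 14.7 and 17.9 at day 30, and these overlap. The day 7 arrays, which were dimmer, were divided by smaller percentiles, so the scaled difference depends on the scaling.
Day 7 averaged -3.42 ± 1.15 (SD, n = 3), against -6.21 ± 0.16 (n = 3) at day 3, a rise of 2.79 ± 0.56 (6.91-fold, adjusted p = 0.0033). It was at least 5.46-fold higher in day 7 cells than in day 0 cells (fitted change 2.63, adjusted p = 0.0393). The call against day 0 was lost without any of the day 3 or day 30 samples or day 7 replicate 3 (0.0666 to 0.0706), and also with scaling to miR-142a-3p and miR-223-3p, the highest floor, only the groups compared and array quality weights (adjusted p = 0.15 to 0.271). Day 30, at -6.51 ± 0.15 (n = 2), was lower than day 7 by 3.09 on the log2 scale (change -3.09 ± 0.63, adjusted p = 0.00175), which was 0.09 (adjusted p = 0.904) without scaling. The calls of day 30 against day 7 and of day 7 against day 3 held with every sample left out. They were lost without scaling, with scaling to spiked controls (-0.34 and 0.98), with brightness as a covariate (-0.33 and 0.76) and with the highest floor (-1.69 and 1.69). Without day 7 replicate 2 they were -2.43 and 2.12. Within slide 1 they were -2.32 and 2.12, and within slide 2 -4.52 and 4.13. Days 0, 3 and 30 were not separated from each other for miR-214-3p (adjusted p = 0.565 to 0.842). In the authors' deposited table, quantile normalized by the authors, miR-214-3p had log2 values of 5.39, 7.75 and 5.01 at day 7, against 2.76, 3.09 and 3.55 at day 3, and 3.72, 3.62 and 3.57 at day 30.

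Of the smooth muscle pair, miR-143-3p was measured on some arrays after injury and miR-145a-5p on none. mmu-miR-145a-5p was detected on none of the 11 arrays, with signals of 1.19 to 1.97 scanner units. mmu-miR-143-3p was detected on 2 of 3 arrays at day 3 (4.51 and 14.5 scanner units) and on all 3 at day 30 (26.2, 12.4 and 16.0), and on none at day 0 or day 7. Its log2 level was -7.74, -8.53 and -6.79 at day 3 and -6.46, -6.87 and -6.77 at day 30, so that both groups overlapped, and the change at day 30 against day 3 was 1.05 (adjusted p = 0.214). The test placed day 3 below day 0 (-1.64, adjusted p = 0.0417), but both day 0 arrays gave background values only, at -6.79 and -5.31. That call is no fall of miR-143-3p, and it turned to between 0.71 and 1.31 under 4 other scalings. The mean day 30 level of miR-143-3p was 1.46-fold above the mean day 7 detection limit, and the test did not separate these days (adjusted p = 0.339). All its day 30 values lay below the limit of day 7 replicate 2 (-6.35), so no smallest rise from day 7 can be given.

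mmu-miR-152-3p, a repressor of Dnmt1, was highest at day 30, lower at day 3 and mostly undetected at days 0 and 7. It was undetected at day 0 (-6.75 and -5.31, background) and its log2 level was -6.31, -7.12 and -6.43 at day 3. At day 7 it was -5.24, -6.53 and -7.48, of which the first alone was detected, and at day 30 it was -3.63, -3.67 and -3.62. The day 30 arrays lay above all others, in scanner units too (186, 114 and 143, against at most 18.7 elsewhere). Day 30 averaged -3.64 ± 0.0077 (SD, n = 2), against -6.62 ± 0.44 (n = 3) at day 3, a rise of 2.98 ± 0.63 (7.89-fold, adjusted p = 0.00449). It rose against day 7 by 2.78 ± 0.63 (adjusted p = 0.00339), with day 7 detected on 1 of 3 arrays, and it was at least 4.71-fold higher than at day 0 (fitted change 2.39 ± 0.69, adjusted p = 0.0121).
The call against day 3 held in 16 of 16 other settings and with every sample left out. The call against day 7 held in 14 of 16 and with every sample left out, its exceptions being scaling to miR-142a-3p and miR-223-3p (0.43) and brightness as a covariate (3.12, adjusted p = 0.177). The call against day 0 was lost without day 0 replicate 1 or either day 30 sample (0.0548 to 0.0625), with scaling to miR-142a-3p and miR-223-3p (0.41), with brightness as a covariate (adjusted p = 0.414) and with array quality weights (0.0691). Days 0, 3 and 7 were not separated (adjusted p = 0.456 to 0.753).

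Of the 2 miRNAs that share the seed of miR-152-3p, as printed above, miR-148a-3p had its highest values at day 3, and the day 3 and day 30 levels of miR-148b-3p overlapped. miR-148a-3p, also a Dnmt1 repressor, had signals of 79.6, 60.0 and 174 scanner units at day 3, 3.38, 1.23 and 1.44 at day 7 (the first alone detected), and 43.8, 20.5 and 24.3 at day 30, and it was undetected at day 0. In day 3 cells it was at least 5.12-fold higher than in day 0 cells (adjusted p = 0.00309) and fell at day 30 against day 3 (-2.42 ± 0.52, adjusted p = 0.00472), a call lost without day 30 replicates 2 and 3 (0.068). miR-148b-3p averaged -4.92 ± 0.26 (SD, n = 3) at day 3 and -5.24 ± 0.48 (n = 2) at day 30, and the difference of -0.32 did not pass (adjusted p = 0.672). At day 7 it was detected on 1 of 3 arrays, so its calls against that day (-1.87 for day 7 against day 3, adjusted p = 0.00976, and 1.55 for day 30 against day 7, adjusted p = 0.0306) set it mostly against background. Both signs turned (0.67 and -0.80) with scaling to miR-142a-3p and miR-223-3p. The call of day 30 against day 7 was lost without day 7 replicate 3 or either day 30 sample (0.0645 to 0.251), and that of day 7 against day 3 without day 7 replicate 3 (0.0551). The ratio of miR-152-3p to miR-148a-3p within an array was -2.72, -3.37 and -3.22 (log2) at day 3 and 2.08, 2.48 and 2.55 at day 30. The sign differs between all day 3 and all day 30 arrays, and the ratio to miR-148b-3p did the same (-1.55, -1.89 and -1.64 at day 3, 1.27, 2.02 and 1.86 at day 30). These ratios do not depend on the scaling between arrays. They were chosen after their values were seen and were not tested. A ratio of 2 probes shows unequal change and no order of abundance.

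Across the comparisons the members' calls are set beside the share of all 369 tested miRNAs that were called. miRNAs detected on at least 2 arrays were tested, and 5 members passed that filter. Against day 0, higher calls were made for 2 of 5 members at day 30 (8.94% of all tested), 2 at day 7 (3.25%) and 1 at day 3 (16.3%). Between the injured groups, 1 member was called higher at day 30 than at day 7 (13.6%), 2 at day 30 than at day 3 (9.76%) and 2 at day 7 than at day 3 (21.1%). Lower calls were 1 at day 30 against day 7 (34.1% of all tested) and the background call of miR-143-3p at day 3 against day 0 (39%). In either direction, 2 members were called in each of the 6 comparisons, beside 56.4% of all tested miRNAs (day 30 and day 0), 3.79% (day 7 and day 0), 55.3% (day 3 and day 0), 47.7% (day 30 and day 7), 30.9% (day 30 and day 3) and 37.1% (day 7 and day 3). No member was called lower at day 30 or day 7 than at day 0, where 47.4% and 0.542% of all tested miRNAs were. Since miR-199a-5p, miR-214-3p, miR-143-3p and miR-152-3p were undetected at day 0, a fall from that day could not be measured for them. Nothing is read from their lack of lower calls. The F test across the 4 groups called 3 of 5 members, miR-199a-3p (adjusted p = 0.00202), miR-214-3p (0.00211) and miR-152-3p (0.00538), against 78.9% of all tested miRNAs, a share that the members do not exceed. It did not call miR-199a-5p (0.0656) or miR-143-3p (0.1).
The median change of the 5 members was 0.76 (log2) at day 30 against day 0, where that of all tested miRNAs was -1.37. For day 7 and day 0 these medians were 1.10 and -0.51, and for day 3 and day 0 they were -0.28 and -0.79. In each comparison with day 0 the median member was miR-199a-5p, which was undetected at day 0. These medians of the members therefore rest on scaled background and show no rise of the set. For day 30 and day 7 the medians were 0.39 and -0.68. For day 30 and day 3 the members' median was 1.05, with -0.41 for all tested, and for day 7 and day 3 it was 0.79, with 0.61. The scaling thus leaves the bulk of miRNAs shifted in every comparison, and the miRNAs that every array detected had medians of -1.06, -0.21, -0.77, -0.57, -0.49 and 0.63 in the same order.

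**Figure D3:**
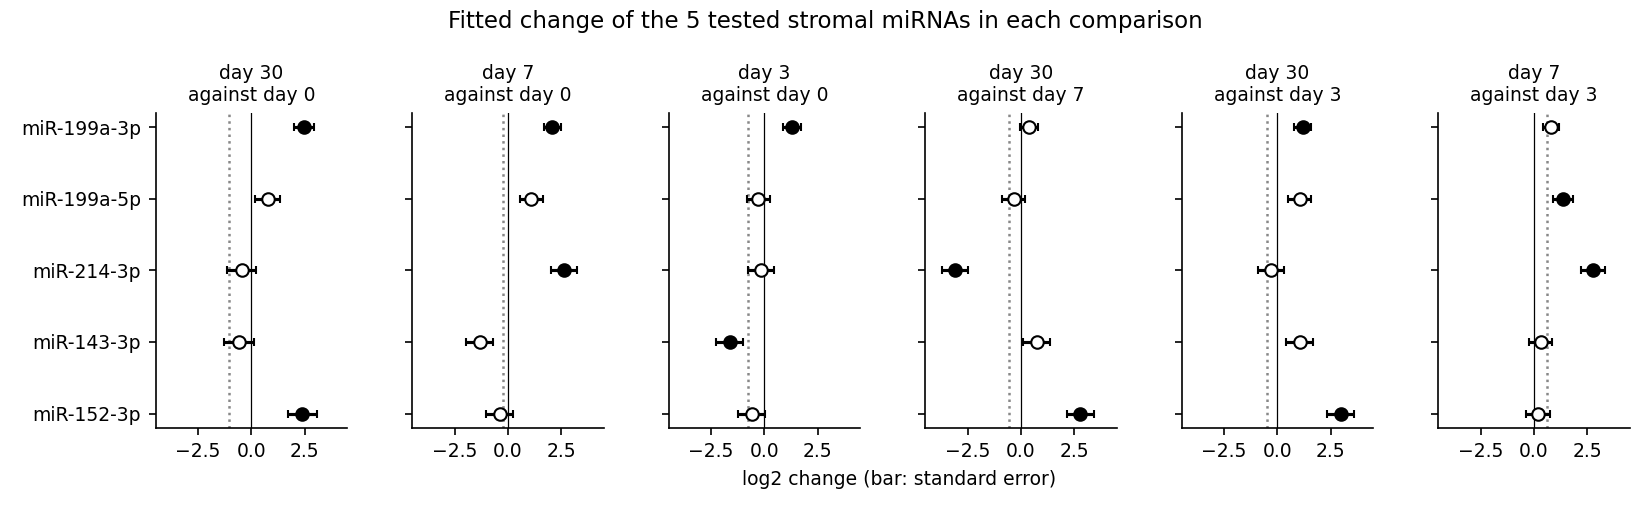
Change of each of the 5 tested members in the 6 comparisons (horizontal axis, log2 change; bars, standard error; filled points, adjusted p under 0.05; dotted line, median over the 126 miRNAs that every array detected). miR-199a-3p lies right of 0 in all 6 panels, miR-214-3p moves with day 7 and miR-152-3p with day 30; the filled miR-143-3p point at day 3 against day 0 rests on undetected day 0 arrays.

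Ratios between members within an array ask whether neighbours and unrelated stromal miRNAs kept step, and they do not depend on the scaling except through the floor. Being free of the scaling does not free them of array brightness, whose part in the ratios was not tested. The 4 ratios were tested by an exact permutation of the group labels over the 10 samples (the F ratio has no direction; 25200 arrangements, smallest possible p 0.000159), and p-values were adjusted over the 4. The log2 ratio of miR-199a-3p to miR-214-3p was 2.67, 2.14 and 2.25 at day 3, 1.12, -0.70 and 0.66 at day 7, and 3.75 and 3.93 in the day 30 samples. The 3 groups did not overlap. The test across the 4 groups passed (F = 9.74, exact permutation p = 0.00905, adjusted 0.0362), but it takes in day 0, where miR-214-3p was undetected. It therefore does not show unequal change from day 0. The ratio was lowest at day 7 and highest at day 30, which were also the dimmest and the brightest of these 3 groups. Within day 7 it was -0.70, 0.66 and 1.12 at 75th percentiles of 114, 260 and 323. At day 3 and day 30 the brightest array did not have the highest ratio. The ratio of miR-199a-3p to miR-152-3p averaged 2.76 at day 3, 3.35 at day 7 and 0.96 at day 30 (F = 7.26, exact permutation p = 0.0214, adjusted 0.0429). At day 7 miR-152-3p was detected on 1 of 3 arrays, so the value there is mostly a ratio to background, while both miRNAs were detected on all arrays of day 3 and day 30, whose ratios did not overlap.
The ratio of the 2 arms, miR-199a-3p to miR-199a-5p, averaged 2.47 at day 3, 1.89 at day 7 and 2.61 at day 30 and missed the threshold (F = 3.88, exact permutation p = 0.0529, adjusted 0.0529). The ratio to miR-143-3p averaged 3.83, 4.32 and 3.97 on the same days (F = 8.32, exact permutation p = 0.0325, adjusted 0.0434), but miR-143-3p was detected on 2 of 3 arrays at day 3 and on none at day 7 or day 0, so that this test runs largely on background and nothing is read from it. At day 0 all 4 ratios set miR-199a-3p against an undetected partner, with means of 0.88 to 0.90, and are no measurement of the partner. All 4 tests across the 4 groups therefore run partly on background. In a test of the 8 samples after injury, chosen after seeing the data, miR-214-3p (F = 19.5, exact permutation p = 0.00357, the smallest that 560 arrangements can give, adjusted 0.0143) and miR-152-3p (F = 10.6, p = 0.0179, adjusted 0.0357) passed. The ratios to miR-199a-5p (F = 4.38, exact permutation p = 0.0536, adjusted 0.0714) and miR-143-3p (F = 0.396, p = 0.732, adjusted 0.732) did not. With all 4 groups, the ratio to miR-214-3p lost its call without any day 3 or day 30 sample and without day 7 replicate 2 or 3 (exact permutation, adjusted p = 0.054 to 0.0913). The ratio to miR-152-3p lost it without the same samples (0.0709 to 0.0913), and the ratio to miR-143-3p without any 1 sample (0.0709 to 0.119). The ratio to miR-199a-5p passed without day 0 replicate 1 (F = 19.6, adjusted p = 0.0119, exact permutation) or without day 7 replicate 1 (F = 3.71, 0.018).

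**Figure D4:**
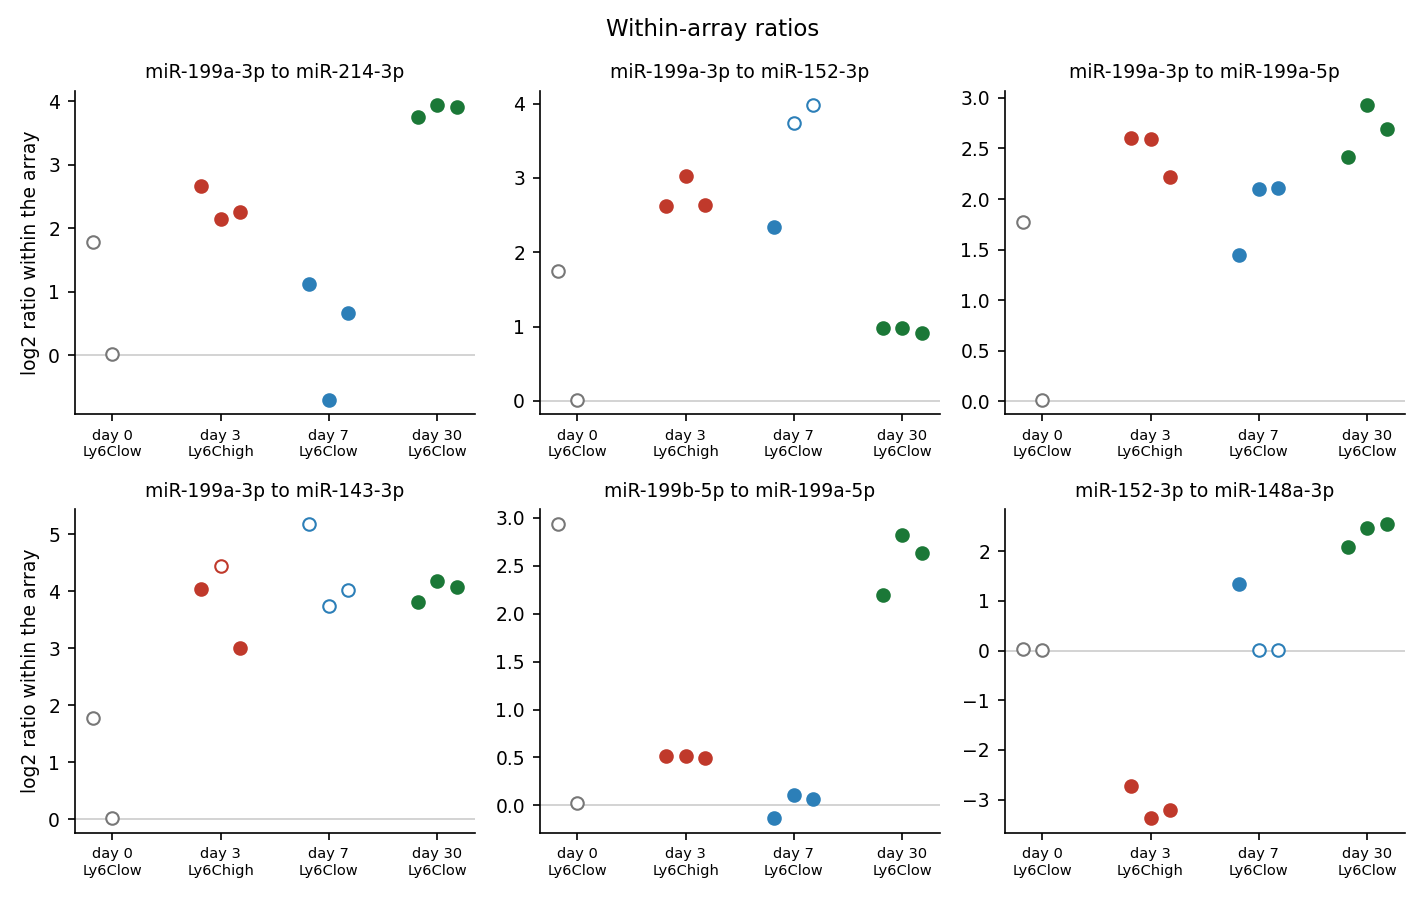
Log2 ratio of 2 miRNAs within each of the 11 arrays by day and sorted population (filled points, both miRNAs detected; open points, at least 1 undetected). The miR-199a-3p to miR-214-3p ratio is lowest at day 7 and highest at day 30, the miR-199b-5p to miR-199a-5p ratio is highest at day 30 among filled points, and the miR-152-3p to miR-148a-3p ratio lies below 0 at day 3 and above 0 at day 30.

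Other miRNAs of mesenchymal cells did not all move with the members. Of 15 listed, 14 were on the array and 6 were tested. miR-99a-5p, miR-100-5p and miR-125b-5p were higher at day 7 than at day 3 (2.07, 1.70 and 2.42 on the log2 scale, adjusted p = 0.00177, 0.00976 and 0.00124), 3 of 6 where 21.1% of all tested miRNAs rose. They were also higher at day 30 than at day 3 (3.31, 2.39 and 2.32), together with miR-195a-5p, so that 4 of 6 rose there and 0 fell, where 9.76% of all tested rose and 21.1% fell. The same 3 were lower at day 3 than at day 0 (39% of all tested were), and none of the 6 passed at day 7 against day 0. miR-195a-5p rose at day 30 against day 0 (1.69, adjusted p = 0.00762) and against day 7 (2.03, adjusted p = 0.00164). miR-127-3p, of an imprinted cluster active in mesenchymal cells, was undetected at days 0, 3 and 7, so that its lower calls at day 30 and day 3 against day 0 set it against background. A further 8 of the list, among them miR-379-5p, miR-434-3p and miR-218-5p, were detected on no array.

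Of 16 miRNAs known from studies of cardiac fibrosis, all were tested. At day 30 against day 7, 6 rose (13.6% of all tested miRNAs did) and 3 fell (34.1%), with a list median of 0.53 (log2) against -0.68 for all tested miRNAs. Those that rose include miR-29b-3p (3.95, adjusted p = 0.00037) and miR-29c-3p (2.89, adjusted p = 0.000856), which repress collagens, and miR-101a-3p, undetected at day 7 and at least 28.6-fold higher in day 30 cells (adjusted p = 0.000513). Relative to day 0, 7 were called higher (8.94% of all tested) and 3 lower (47.4%) at day 30, and the lower call of miR-132-3p there set day 30 against background, since it was undetected at day 0. Relative to day 3, 5 rose (9.76% of all tested) and 1 fell (21.1%) at day 30. In day 7 cells the 2 that rose above day 0 were miR-21a-5p (1.65) and miR-378a-3p (1.63, both adjusted p = 0.0393), where 3.25% of all tested rose, and none fell. In day 3 cells 3 rose (16.3% of all tested) and 3 fell (39%) relative to day 0, with miR-21a-5p, which sustains fibroblast survival, at 3.47 (adjusted p = 0.000149). At day 7 against day 3, 4 rose (21.1% of all tested) and 5 fell (16%).

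Markers of other cell types that a heart sort could hold were read on the same arrays. Of 6 cardiomyocyte miRNAs, miR-208a-3p, miR-208b-3p and miR-499-5p were detected on no array, and the summed scaled level of the list spanned 0.137 to 0.264 (day 0), 0.0267 to 0.0462 (day 3), 0.0916 to 0.131 (day 7) and 0.0607 to 0.0855 (day 30). In this sum and those of the other lists, undetected miRNAs enter at background, which is highest at day 0. Only 2 of the 6 cardiomyocyte miRNAs were detected on each day 0 array. miR-133a-3p fell at day 30 against day 7 (-1.46, adjusted p = 0.0143) and rose at day 7 against day 3 (2.21, adjusted p = 0.00177), the comparisons in which miR-214-3p also fell and rose, and miR-133b-3p was called in the same directions (-1.36, adjusted p = 0.0237, and 2.17, adjusted p = 0.00222). miR-1a-3p of the same list was instead higher at day 30 than at day 7 (1.88, adjusted p = 0.039) and than at day 3 (2.14, adjusted p = 0.0343), with detection on 1 of 3 arrays at day 7 and 2 of 3 at day 3. The endothelial list of miR-126a-3p and miR-126a-5p spanned 0.0738 to 0.442, 0.309 to 0.402, 0.298 to 0.346 and 0.251 to 0.266 on the same days, and miR-126a-3p passed in no comparison. For the members the sums were 0.0767 to 0.152, 0.0947 to 0.126, 0.182 to 0.444 and 0.276 to 0.295 on these days, undetected members entering at background.
The erythroid miR-451a was called higher at day 30 than at day 7 (3.43, adjusted p = 0.000513), as was miR-152-3p, and was detected on 1 of 3 day 7 arrays. miR-144-3p was undetected throughout. The lymphocyte miR-150-5p fell in that comparison (-2.69, adjusted p = 0.0033). The haematopoietic list (miR-142a-3p, miR-142a-5p and miR-223-3p) spanned 3.92 to 7.17, 14.2 to 17.9, 2.39 to 3.58 and 7.94 to 9.33 on days 0, 3, 7 and 30, and was lowest where miR-214-3p was highest. The part of these markers, of brightness and of cells other than macrophages in the members' levels was not tested.

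The miRNAs whose levels ran most like a member's were found by Pearson's r over the 10 samples among 219 miRNAs detected on at least 8 arrays, as a description that arrays of the same brightness share. For miR-199a-3p these were miR-378b (0.837), miR-24-3p (0.833), miR-27b-3p (0.829), miR-23b-3p (0.778) and miR-705 (0.736), against a median r of -0.169. miR-23b-3p and miR-27b-3p come from 1 cluster. For miR-152-3p they were miR-497a-5p (0.884), miR-29c-3p (0.829), the entry named miR-5097_v19.0 (0.796), miR-199b-5p (0.795) and miR-5100 (0.757), against a median of -0.271. miR-152-3p was detected on 7 of 11 arrays, so these values partly follow scaled background at days 0 and 7. For miR-143-3p, let-7e-5p stood first at 0.680, against a median of 0.017, but miR-143-3p was undetected on 6 of 11 arrays, so that this value follows scaled background at days 0 and 7.

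Some of the called changes were recomputed under other processing of the same arrays. The rise of miR-199a-3p at day 30 against day 0 ranged over 0.50 to 6.53 (log2) in 16 settings and that of miR-152-3p at day 30 against day 3 over 1.48 to 3.92, with no change of sign; the first was called in 14 of 16 and the second in 16 of 16. The miR-214-3p difference of day 30 against day 7 ranged over -5.44 to 0.09.

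**Figure D5:**
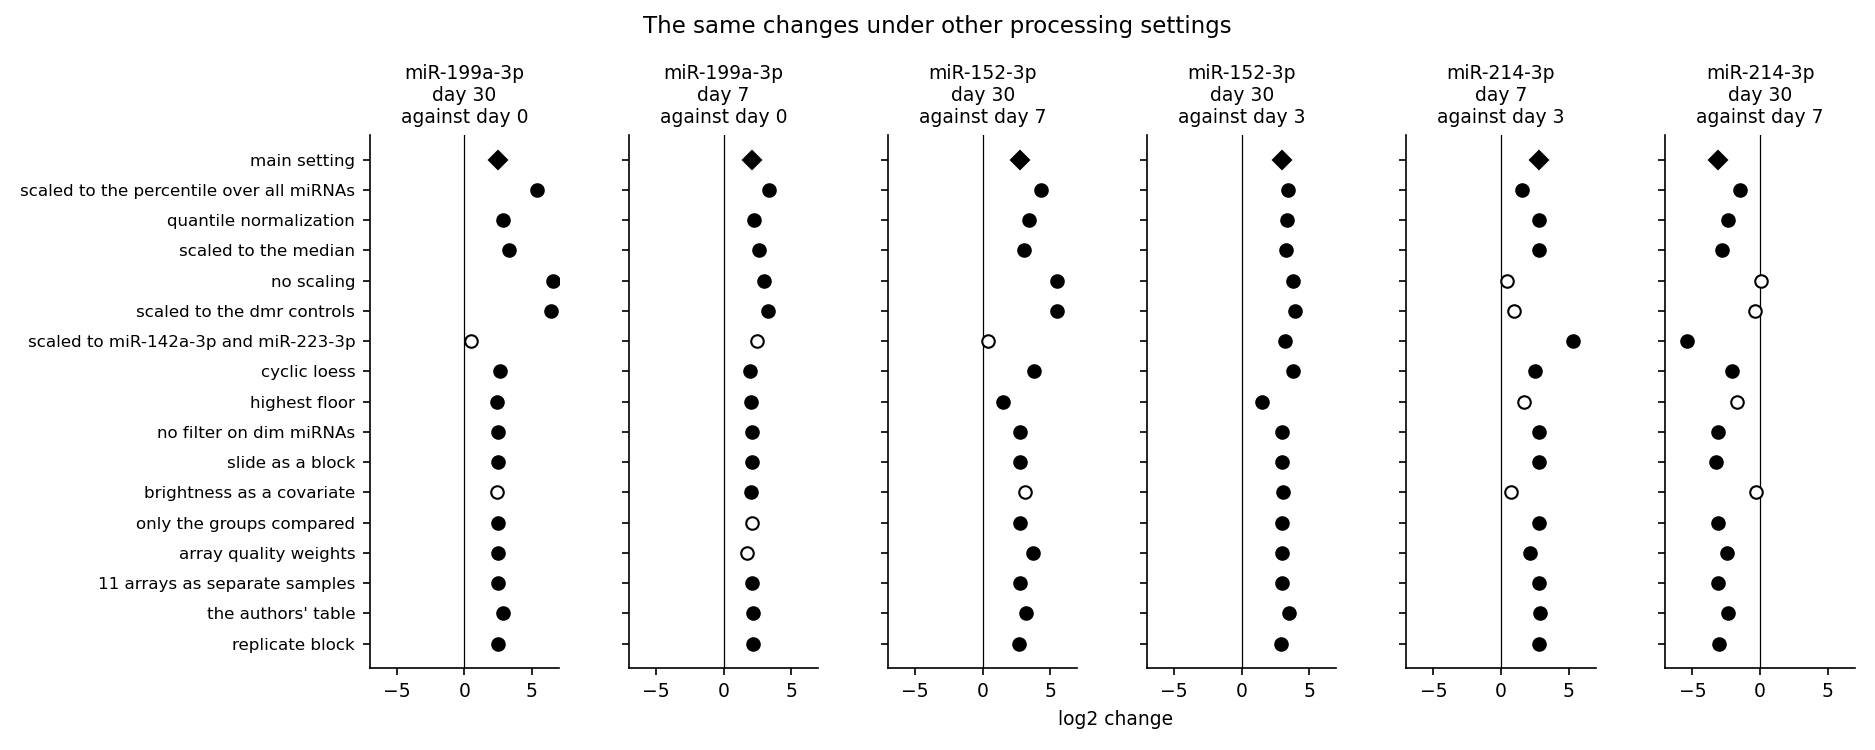
The 6 changes plotted are called changes of members (1 panel each; horizontal axis, log2 change) under the main setting (diamond) and 16 alternatives (circles; filled, adjusted p under 0.05 in that setting). Without scaling, the miR-214-3p difference of day 30 against day 7 lies at 0.09 and is open, while miR-152-3p at day 30 against day 3 is filled in every row.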

How the data were processed

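Per the labels' protocols, total RNA (100 ng per sample) was labelled with Cy3; the submitters' processing notes name Agilent Feature Extraction, with no version. Per the file headers, each deposited scanner file gives, for 1247 miRNAs and 21 controls, the total gene signal (intensity, linear scale), an error and a detection flag. Log2 values that the authors had quantile normalized come in a table of 317 miRNAs, which holds 5 of the 6 members. Signals were divided by each array's 75th percentile over 126 miRNAs detected on all arrays, raised to a floor of 0.00271 (log2 -8.53) and logged. The 369 miRNAs detected on at least 2 of 11 arrays entered 1 model of 4 groups (limma 3.58.1, R 4.3.3, jsonlite 2.0.0; 6 residual degrees of freedom; checked on simulated data). Calls are Benjamini-Hochberg adjusted p-values under 0.05 per comparison; figures used matplotlib 3.10.9. A bound ("at least N-fold") sets a group mean against the mean log2 of the lowest detected signals of the other group's arrays. Slides were read from the array layout. The files name no genome build. Named miRNAs are the 6 members, up to 3 called per list with the largest change (or, with no call, the brightest 2), those sharing a member's seed, the 5 most correlated, and detected markers; fewer are printed. Members and lists were chosen with earlier results of these data known.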

Additional observations from a re-analysis of the deposited data

How the results depend on the processing

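Member calls depended on the scaling, on the floor and on single samples. At day 30 against day 0, 5 members were called, all higher, when arrays were scaled to the percentile over all miRNAs, with quantile normalization, without scaling and with scaling to the dmr spiked controls, 1 with scaling to miR-142a-3p and miR-223-3p, where miR-143-3p was lower and both original calls were lost, 1 with array quality weights (miR-199a-3p higher), and 0 with brightness as a covariate. For day 7 and day 0 the count was 0 with scaling to miR-142a-3p and miR-223-3p, with only the groups compared and with array quality weights, 1 with the highest floor and 4 with no filter, which adds miR-143-3p and miR-145a-5p as lower, both undetected on those days. For day 3 and day 0 it was 4 with the dmr controls or no scaling (each member higher), and 4, all lower, with miR-142a-3p and miR-223-3p (all but miR-199a-3p). It was 1 with scaling to the median, cyclic loess, the highest floor and the authors' table (miR-199a-3p higher), 1 with only the groups compared (miR-143-3p lower), and 0 with brightness as a covariate and with array quality weights. For day 30 and day 7 it was 4 with the percentile over all miRNAs and array quality weights, miR-214-3p being lower, 4 with no scaling or the dmr controls, where each was higher and miR-214-3p was not among them, 1 with the highest floor and 0 with brightness as a covariate. For day 30 and day 3 it was 4 with quantile normalization, the dmr controls, cyclic loess, array quality weights and the authors' table, and 1 with miR-142a-3p and miR-223-3p, with no filter and with the replicate block. For day 7 and day 3 it was 5 with miR-142a-3p and miR-223-3p, 1 with the percentile over all miRNAs, quantile normalization, the highest floor and the authors' table, and 0 with the dmr controls and with brightness as a covariate. The F test called 6 with no filter, which lets miR-145a-5p in, and 5 with the percentile over all miRNAs, quantile normalization, no scaling, the dmr controls, miR-142a-3p and miR-223-3p, cyclic loess, array quality weights and the authors' table. The cause of these moves was not tested.

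With each sample left out in turn, the counts ranged over 1 to 2 (day 30 against day 0), 0 to 3 (day 7 against day 0), 0 to 2 (day 3 against day 0), 2 to 2 (day 30 against day 7), 1 to 2 (day 30 against day 3), 1 to 3 (day 7 against day 3) and 3 to 5 (F test); without day 30 replicates 2 and 3 they were 1, 0, 1, 2, 1 and 1 in the 6 comparisons. The F ratios of miR-199a-3p ranged over 2.82 to 19.6 (to miR-199a-5p), 5.67 to 15.9 (to miR-214-3p), 3.51 to 10.5 (to miR-143-3p) and 5.13 to 13.2 (to miR-152-3p), with 6.81 to miR-143-3p when day 30 replicates 2 and 3 were left out. Leaving out day 3 replicate 1 gave 2.97 (miR-199a-5p), day 30 replicate 1 gave 6.06 (miR-214-3p) and day 7 replicate 2 gave 5.15 (miR-152-3p). The ratio to miR-199a-5p passed with the highest floor (38.5, exact permutation, adjusted p = 0.00233) and with 11 arrays as separate samples (5.05, 0.0216), and that to miR-143-3p did not without day 0 (0.396). A lone remaining sample is assumed to vary like the other groups.

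Signs turned as follows. At day 30 against day 0, miR-214-3p became 2.30, 2.39, 3.34 and 3.33 and miR-143-3p 2.17, 2.22, 3.21 and 3.20 with the percentile over all miRNAs, quantile normalization, no scaling and the dmr controls, and miR-199b-5p became -0.24 with miR-142a-3p and miR-223-3p and -0.15 with brightness. At day 3 against day 0, under those same 4 scalings, miR-199a-5p became 2.08, 1.34, 2.69 and 2.57, miR-214-3p 2.20, 1.94, 2.80 and 2.69 and miR-143-3p 0.71, 0.76, 1.31 and 1.13, miR-152-3p 2.40 and 2.28 under the last pair, and miR-199a-3p -0.88 with miR-142a-3p and miR-223-3p. At day 30 against day 7, miR-199a-5p became 2.84 without scaling and 2.41 with the dmr controls, miR-214-3p 0.087 without scaling, and miR-199a-3p -1.96, miR-148b-3p -0.80 and miR-199b-5p -0.24 with miR-142a-3p and miR-223-3p. At day 7 against day 3, without scaling, miR-199a-3p became -1.55, miR-199a-5p -0.96 and miR-152-3p -1.72; miR-199a-5p was -0.43 with the dmr controls and miR-148b-3p 0.67 with miR-142a-3p and miR-223-3p.

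Replicate numbers were not taken as pairing: deviations of 15 same-numbered pairs correlated at -0.26 to 0.59 (median 0.40, 10 over 0.1), and those of 30 other pairs at -0.69 to 0.63 (median -0.26, 9 over 0.1). Of the same-numbered pairs, 13 also shared a slide (median 0.43), and the 9 other pairs on 1 slide had a median of 0.34 (7 over 0.1). Blocking on the number left the other counts within 1.5 times. With only miRNAs detected on all arrays no member remains, only values were computed for each slide alone, and the ratio of miR-143-3p to miR-145a-5p was not run, since miR-145a-5p was never detected. Signals near the scanner's background, above all at day 0, limit every comparison with that day.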
